A study of Rattus norvegicus with 8 samples.

Results

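Fcgr3a Clec4a3 myeloid cells of the rat liver were examined in single-cell RNA-seq data of liver immune cells. Cells were selected on their own counts of unique molecular identifiers (UMIs, each marking 1 captured transcript). A cell barcode was kept with at least 500 UMIs and under 20% of its UMIs from mitochondrial genes, and of these 32170 cells a member had at least 2 UMIs of Fcgr3a, at least 2 UMIs of Clec4a3, at most 1 UMI of Vcan and Fcnb together, and no UMI of Clec4f or Siglech. The rule gave 230 members, or 0.715% of all cells. The 6 genes of the rule are therefore high or low by selection, and their levels are given as a description only.

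Fcgr3a encodes a low-affinity receptor for immunoglobulin G, and Clec4a3 is a C-type lectin receptor of myeloid cells. In rodents, patrolling non-classical monocytes carry high Spn (CD43), depend on the transcription factor Nr4a1 and on the growth factor receptor Csf1r, and are low in Ccr2. Vcan and Fcnb mark classical monocytes, Clec4f marks Kupffer cells, the resident macrophages of the liver, and Siglech marks plasmacytoid dendritic cells. A choline-deficient diet leads to fat accumulation and inflammation in the liver, where macrophages take up and handle lipid. In immune cells, AP-1 factors such as Fos and Jun are induced within a short time by handling and other stress.

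The cells came from the livers of 4 male Han Wistar rats. NC1 and NC2 received the choline-sufficient, L-amino acid-defined diet (CSAA), and PC1 and PC2 the choline-deficient one (CDAA). From every rat, part of the cells was captured fresh and part was frozen in DMSO, stored for 3 weeks and thawed, so there were 8 libraries and 2 animals per diet. Frozen cells were captured on a later day than fresh ones, and an effect of that day and one of preservation cannot be told apart. Library totals were between 18338700 and 26471843 UMIs. Members had medians of 3039 to 4646 UMIs per cell, and their summed counts per library ranged from 36044 UMIs in PC1 DMSO to 208003 UMIs in NC2 fresh. The smallest libraries of members were PC1 DMSO with 8 cells and NC2 DMSO with 13 cells, so values of these libraries rest on few cells.

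Myeloid transcripts were also counted outside myeloid cells: B cells (at least 6 UMIs of Cd79a and Cd79b together, a limit chosen after seeing the data) had an Fcgr3a level of 50.2 to 129 CPM (UMIs of a gene per 1000000 summed UMIs) across libraries, and the source of these UMIs was not tested. Both rule genes reached 2 UMIs in 3 of 1441 B cells (0.208%), and no B cell met the whole rule. Among cells gated as T cells and as NK cells, 1 of 4524 and 4 of 5924 met it. The levels in B cells (median depth 2582 to 3463 UMIs) and in empty droplets (1 to 100 UMIs, which hold RNA free in the suspension) are given beside the results. No member barcode was a member in a second library, and 9 member barcodes were also passing barcodes of another library, where any 2 libraries shared 10 to 29 passing barcodes.

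The members carried the genes of the label. Eno3, a muscle-type glycolytic enolase, was measured in members at 490, 468, 380 and 273 CPM in NC1 fresh, NC1 DMSO, NC2 fresh and NC2 DMSO, and at 612, 527, 589 and 289 CPM in PC1 fresh, PC1 DMSO, PC2 fresh and PC2 DMSO. The other cells of the same libraries had between 93.5 and 249 CPM of Eno3, and each member value lay above that of its own library. Ccl9, a chemokine, was measured in members at 40.2 to 285 CPM and in the other cells at 8.6 to 76.4 CPM. Since Eno3 and Ccl9 did not enter the rule but were measured in the selected cells, these differences are given without a test.

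The 11 pan-myeloid markers summed to 16019 to 19813 CPM in members and to 8492 to 14137 CPM in the other cells, with Tyrobp, a signalling adaptor, as the most abundant. The 15 non-classical monocyte markers listed summed to 712 to 1969 CPM in members and to 455 to 914 CPM in the other cells, and lay closest in PC2 DMSO, with 712 CPM against 687 CPM. Spn had a median over libraries of 671 CPM in members, with a range of 305 to 766 CPM, and 190 to 411 CPM in other cells. Nr4a1 had 171 to 659 CPM in members and 116 to 245 CPM in other cells, and Cx3cr1, the fractalkine receptor, had 27.7 to 74.4 CPM against 10.8 to 22.5 CPM. Of these 15 markers, Ace, Klf2, Apoc2 and Cdkn1c had no UMI in any member, and Ace had none in the other cells either. Ccr2, a defining marker of classical monocytes, had no UMI in members and at most 1.1 CPM in other cells, so its absence does not separate them.

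The 12 classical monocyte markers summed to 12818 to 18110 CPM in members and to 9212 to 16624 CPM in other cells, with Lyz2, the lysozyme gene, as the most abundant (Vcan and Fcnb, genes of the rule, are in this list). Kupffer cell markers summed to 153 to 7768 CPM in members, with C1qb as the most abundant, against 550 to 1955 CPM in other cells, and lipid-associated macrophage markers to 715 to 7340 CPM against 449 to 4037 CPM, with Apoe as the most abundant. Without 8 members rich in complement transcripts, which are described below, the members' highest sums were 887 CPM and 2416 CPM. T cell markers summed to 76 to 426 CPM in members, against 242 to 930 CPM in other cells and 120 to 548 CPM in B cells, with Cd3g as the most abundant. NK cell markers summed to 1201 to 3524 CPM in members, to 2294 to 7108 CPM in other cells and to 1041 to 3277 CPM in B cells, with Gzma as the most abundant. B cell markers summed to 72 to 223 CPM in members and to 141 to 402 CPM in other cells. Neutrophil markers summed to 28 to 124 CPM in members and to 28.9 to 73.0 CPM in other cells. For these, members lay above the other cells in NC1 DMSO (59.6 against 30.0 CPM), NC2 DMSO (124 against 28.9 CPM) and PC2 fresh (69.7 against 67.6 CPM), and below them in the rest. Members without a UMI of Cd3e, Cd3d, Cd79a, Cd79b, Ncr1, Klrd1 or Hdc numbered 44 of 230 (19.1%). Among the 1043 barcodes with the highest doublet scores there were 9 members, and the part of doublets and of free RNA in these marker levels was not tested.

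In all, 789 genes, some of them genes of the rule, had at least 100 CPM in members of every library and were detected in the other cells. This limit was set on members alone and favours genes that are high in them, so the ratios to the other cells are a description. Of the 789 genes, 183 were higher in members in 8 of 8 libraries and 148 were lower in 8 of 8. The 20 leading genes other than those of the rule, ranked by their smallest log2 ratio over the libraries, included lysosomal enzymes that cleave lipid amides. Naaa had a median log2 ratio of 1.77 (range 1.24 to 2.29) and Asah1, the acid ceramidase, of 1.78 (range 1.10 to 2.15). Receptors included Csf1r with a median log2 ratio of 1.40 (range 1.04 to 2.64), the C-type lectin Clec4a1 with 1.42 (range 1.15 to 1.74) and P2ry10, a lysophospholipid receptor, with 1.42 (range 0.75 to 2.96). Spi1, which encodes the myeloid master regulator PU.1, had a median log2 ratio of 1.30 (range 0.96 to 2.31), and the transcription cofactor Lmo2 of 1.22. The signalling adaptor Dok3 had a median log2 ratio of 1.19, and among surface and secreted proteins were the complement inhibitor Cd59 with 0.98, the class I molecule RT1-A1 with 1.10 and the cytokine Tnfsf13 (APRIL) with 1.31. P2ry10 had a median of 265 CPM in members and of 47.1 CPM in cells with at least 8 UMIs of Vcan and Fcnb, whereas Tnfsf13 had 304 CPM and 263 CPM, so the leading genes differed in how far the Vcan Fcnb cells fell below the members.

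**Figure D1:**
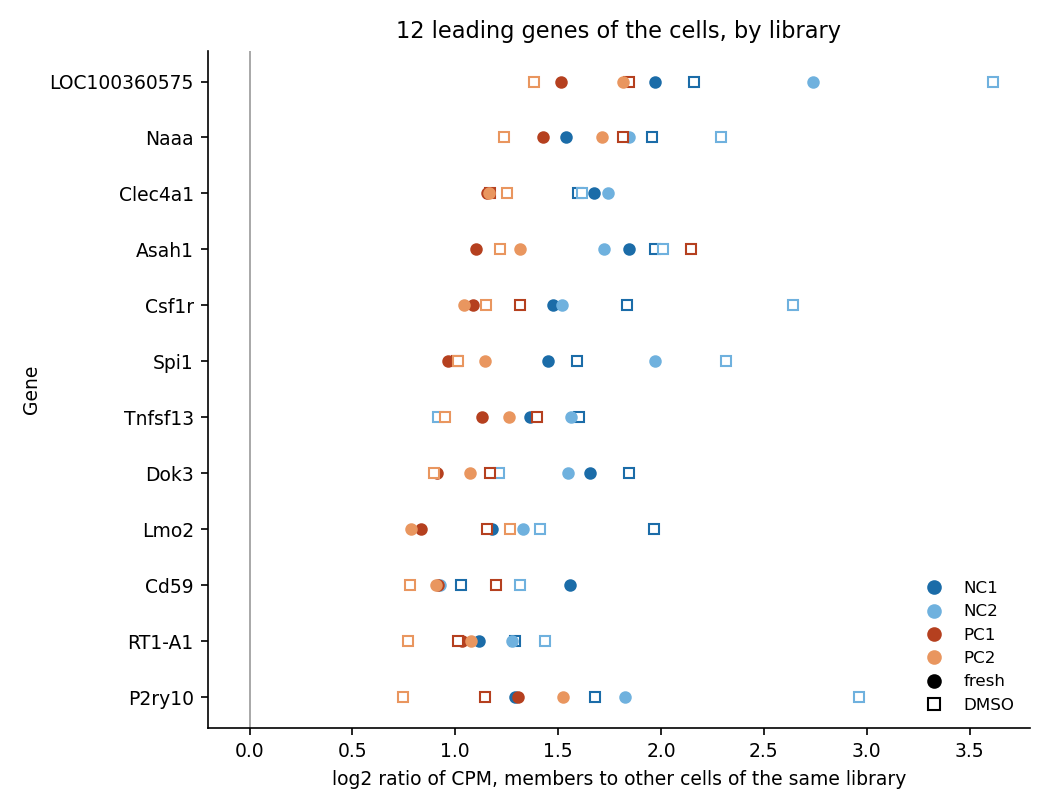
Log2 ratio of CPM in members to CPM in the other cells of the same library (x axis) for 12 of the 20 leading genes (y axis), with 1 point per library, colours for animals, filled circles for fresh and open squares for DMSO. Every point lies to the right of 0, which the ranking by the smallest ratio selects for. Points run from 0.75 for P2ry10 in its lowest library to 3.61 for LOC100360575 in its highest.

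The 43 members with exactly 2 UMIs of Fcgr3a had 526 CPM of Eno3 and 830 CPM of Csf1r, and the 115 cells with exactly 1 UMI that otherwise met the rule had 537 CPM of Eno3 and 822 CPM of Csf1r. Nr4a1 had 465 CPM in these members and 388 CPM in these cells. For Clec4a3, 167 of the 230 members had exactly 2 UMIs, and the 481 cells with exactly 1 UMI had 524 CPM of Eno3 against 443 CPM in those members. These cells had 710 CPM of Csf1r and 472 CPM of Nr4a1, against 745 and 498 CPM in those members. For the limit on Vcan and Fcnb, the 101 members with exactly 1 UMI had 493 CPM of Nr4a1 and the 70 cells with exactly 2 UMIs had 269 CPM. Eno3 had 454 CPM in these members against 388 CPM outside, and Csf1r 751 against 669 CPM. Cd68 was higher outside, at 891 against 827 CPM. For Siglech, the 230 members had 480 CPM of Nr4a1 and the 66 cells with exactly 1 UMI had 350 CPM. Eno3 had 475 CPM in members against 408 CPM in those cells, and Csf1r 754 against 745 CPM. Ccl9 and Cd68 were higher in those cells, at 159 against 125 CPM and at 917 against 830 CPM. With at least 1 UMI of each gene in place of 2, 1135 cells met the rule, and with at least 3 UMIs of each, 53 did. Without the limits on Vcan, Fcnb, Clec4f and Siglech, 747 cells had at least 2 UMIs of both genes. Of the 517 that the limits removed, 399 exceeded the limit on Vcan and Fcnb, 315 carried Siglech and 162 carried Clec4f, with some removed by several.

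The first comparison addresses the share of members among passing cells in fresh and preserved libraries. This share also depends on the number of other cells and does not measure survival. The share of members among passing cells was 0.606% in NC1 fresh and 1.01% in NC1 DMSO, and 1.24% in NC2 fresh and 0.379% in NC2 DMSO. In the CDAA animals it was 0.970% in PC1 fresh and 0.205% in PC1 DMSO, and 0.883% in PC2 fresh and 0.402% in PC2 DMSO. The share was thus lower after preservation in 3 of 4 animals and higher in NC1. The mean difference was -0.42 percentage points ± 0.58 (SD, n = 4 animals), with p = 0.25 in a two-sided exact permutation test of sign changes, whose smallest possible p is 0.13. The mean difference was smaller in size than its SD between animals, and this test cannot reach a p under 0.05 with 4 animals. With at least 3 UMIs of both genes the share was lower in 4 of 4 animals, by a mean of -0.19 percentage points with p = 0.13 in the exact test. With at least 1 UMI the mean was -1.05 percentage points, without the limits on Vcan, Fcnb, Clec4f and Siglech -1.23, without NC1 -0.70 and without NC2 -0.28. With each barcode thinned to 2000 UMIs it was -0.26 ± 0.29 (SD, n = 4 animals; p = 0.25, exact permutation test), and the members' median depth was lower after DMSO in 3 of 4 animals.

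**Figure D2:**
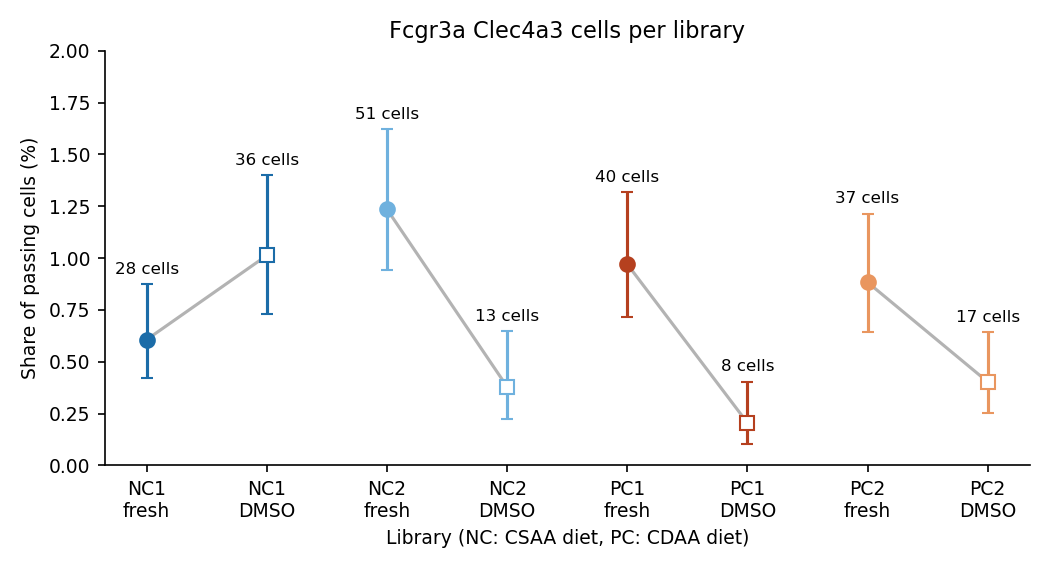
Share of Fcgr3a Clec4a3 cells among passing cells (y axis, %) in the 8 libraries (x axis), with 95% Wilson intervals that cover counting error only, numbers of cells above the points, and grey lines joining the 2 libraries of an animal. NC1 rises from 0.606% to 1.01%, and the other 3 animals fall.

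Between diets, the share averaged 0.808% in the CSAA animals and 0.615% in the CDAA animals, a difference of -0.19 percentage points with p = 0.333 in an exact permutation test of 2 against 2 animals, which is the smallest p this design allows. The sign depended on the rule. Without the limits on Vcan, Fcnb, Clec4f and Siglech, the means were 1.69% in CSAA and 2.89% in CDAA, so that the CDAA animals were higher by 1.20 percentage points (p = 0.333, exact permutation test). The limits removed 94 to 107 cells for Vcan or Fcnb in the fresh CDAA libraries and 28 to 34 in the fresh CSAA libraries, and cells with at least 3 UMIs of Vcan and Fcnb numbered 472 to 588 per CDAA library and 165 to 253 per CSAA library.

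Genes per member were compared as a measure of cell quality. The median was 1510, 1356, 1560 and 1527 genes per cell in fresh NC1, NC2, PC1 and PC2 and 1232, 1164, 1364 and 1587 genes after DMSO. The mean difference was -151 genes ± 146 (SD, n = 4 animals; p = 0.25, exact permutation test), and 3 of 4 animals were lower. Without the 8 complement-rich members it was -194 genes ± 79.6 (SD, n = 4 animals), with 4 of 4 animals lower (p = 0.13, exact permutation test), as PC2 DMSO then had a median of 1432 genes against 1521 in PC2 fresh. With each member scaled down to 1000 UMIs by expectation, the difference was -6.35 genes and 4 of 4 animals were lower (p = 0.13, exact permutation test). The median mitochondrial share was between 4.58% and 7.35% and differed by -0.52 percentage points ± 0.76 (SD, n = 4).

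For gene levels, the UMIs of all members of a library were summed, and libraries of the same animal were compared with edgeR's quasi-likelihood test. A gene was called with a Benjamini-Hochberg adjusted p under 0.05 and at least a 2-fold change. Of 1567 genes tested, 8 were called higher (0.511%) and 0 lower (136 genes, or 8.68%, had an unadjusted p under 0.05 in either direction, and DESeq2 called 7 higher, or 0.447%, and 0 lower). These were Fosb, Fos, Jun, Dusp1, Rgs1, Ccl3, Zfp36 and Cd63, and all rose in 4 of 4 animals, as did 6.96% of all tested genes.

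Fos, a subunit of the AP-1 transcription factor, was counted in members at 104, 24.0, 10.0 and 0 CPM in fresh NC1, NC2, PC1 and PC2, and at 1124, 1166, 860 and 757 CPM in the DMSO libraries of the same animals. The DMSO and fresh values did not overlap. The log2 fold change was 5.03 ± 0.43 (SE, n = 4 animals; edgeR adjusted p = 4.01e-05). Empty droplets had 28.1 to 73.1 CPM of Fos in fresh and 454 to 776 CPM in DMSO libraries, and the members' DMSO values were above those of the empty droplets in 4 of 4 libraries. Fosb, a second AP-1 subunit, had 1 UMI in all fresh members together and 32, 21, 7 and 20 UMIs in the DMSO members of NC1, NC2, PC1 and PC2. This is a pooled ratio of 182, with a 95% counting interval of 31.7 to 7259 (edgeR adjusted p = 4.01e-05). Its DMSO levels of 180 to 521 CPM were above those of the empty droplets in 1 of 4 libraries.

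Jun, the partner of Fos in AP-1, rose from 24.1, 14.4, 34.8 and 6.3 CPM to 349, 471, 83.2 and 252 CPM in NC1, NC2, PC1 and PC2. Its log2 fold change was 3.79 ± 0.48 (SE; edgeR adjusted p = 0.00113), and PC1 rose least. In the empty droplets of the DMSO libraries Jun had 216 to 661 CPM, above the members in each. The part of free RNA in the rise of Fosb and Jun was not tested.

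Dusp1, a phosphatase that inactivates MAP kinases, was measured at 169, 149, 184 and 114 CPM in fresh NC1, NC2, PC1 and PC2 and at 1422, 1736, 638 and 604 CPM after DMSO. The CSAA animals reached the higher levels after preservation. The log2 fold change was 2.78 ± 0.25 (SE; edgeR adjusted p = 5.49e-05). It was the called gene whose DMSO levels exceeded those of B cells most, by 4.66-fold to 9.41-fold in the same libraries, and they were also above the empty droplets in 4 of 4 libraries. Zfp36, which encodes tristetraprolin, a protein that promotes decay of AU-rich transcripts, rose from 129 to 154 CPM to 334 to 562 CPM. Its log2 fold change was 1.70 ± 0.22 (SE; edgeR adjusted p = 0.00113), with empty droplets at 335 to 663 CPM. Ccl3, an inflammatory chemokine, rose from 215 to 473 CPM to 721 to 1240 CPM, by 1.82 ± 0.25 on the log2 scale (SE; edgeR adjusted p = 0.00245), and it was not called with at least 3 UMIs of both rule genes (1.60, adjusted p = 0.101). Its DMSO levels were below those of the empty droplets in 3 of 4 libraries.

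Of the 8 called genes, 5 had a sequence around the start site in the RefSeq table, and 3 of these 5 windows held a motif match (Dusp1, Zfp36 and Cd63, an AP-1 site 143 bases before the start) while those of Fosb and Rgs1 held none. The windows of Dusp1 and Zfp36 are shown because these genes were also called without the complement-rich members and hold a match. Each run covers 250 bases before to 50 bases after the start of the gene in build GRCr8, on the strand of the gene. Capitals mark motif matches. The search covered the cAMP response element (TGACGTCA), the AP-1 site (TGACTCA) and the CArG box of serum response factor, on both strands. They do not overlap here.
Dusp1 (chr10:17184603-17184902, plus strand): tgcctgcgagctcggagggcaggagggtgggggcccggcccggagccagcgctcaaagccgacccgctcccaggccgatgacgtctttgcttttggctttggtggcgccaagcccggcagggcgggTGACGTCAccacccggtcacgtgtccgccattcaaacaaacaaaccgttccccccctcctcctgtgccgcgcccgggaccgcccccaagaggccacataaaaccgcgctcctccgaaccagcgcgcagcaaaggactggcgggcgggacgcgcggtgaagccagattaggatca
Zfp36 (chr1:92799059-92799358, minus strand): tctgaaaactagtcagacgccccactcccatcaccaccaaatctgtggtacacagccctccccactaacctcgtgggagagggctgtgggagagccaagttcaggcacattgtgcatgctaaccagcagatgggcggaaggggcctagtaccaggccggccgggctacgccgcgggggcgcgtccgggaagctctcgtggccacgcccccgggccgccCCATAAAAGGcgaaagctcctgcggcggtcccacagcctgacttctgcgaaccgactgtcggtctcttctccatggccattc
The Dusp1 window holds 1 cAMP response element 124 bases before the start, and the Zfp36 window 1 CArG box 32 bases before it. Among all 33469 windows of this length, 1.83% hold the cAMP response element, 4.63% the AP-1 site and 1.64% the CArG box. The matches are a description of these sequences only.

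Rgs1, a regulator of G protein signalling, rose by 2.11 ± 0.37 on the log2 scale (SE; edgeR adjusted p = 0.0183), and Cd63, a tetraspanin of lysosomes, by 1.39 ± 0.25 (SE; adjusted p = 0.0232). Both rested in part on few cells. Rgs1 went from 40.2 to 42.6 CPM in NC1, from 24.0 to 248 CPM in NC2, from 89.6 to 333 CPM in PC1 and from 108 to 505 CPM in PC2. Without the 8 complement-rich members, Rgs1 had a log2 fold change of 1.62 (adjusted p = 0.0794) and Cd63 of 0.16 (adjusted p = 0.967), and Rgs1 was also not called without PC2 (adjusted p = 0.122), without the DMSO libraries of PC1 and NC2 (0.355) and with no replicate block (0.501). Cd63 was also not called in DESeq2 (adjusted p = 0.141), with no filter on low counts (0.0681), with no replicate block (0.831), with at least 1 UMI of both rule genes (log2 fold change 0.63) or without the limits on Vcan, Fcnb, Clec4f and Siglech (0.37). The other 6 genes were called without these members too, and Junb (1.06 ± 0.18 SE, adjusted p = 0.00175) and Btg2 (1.09 ± 0.19 SE, adjusted p = 0.00309) joined them, so that 8 of 1583 genes were called higher (0.505%).

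**Figure D3:**
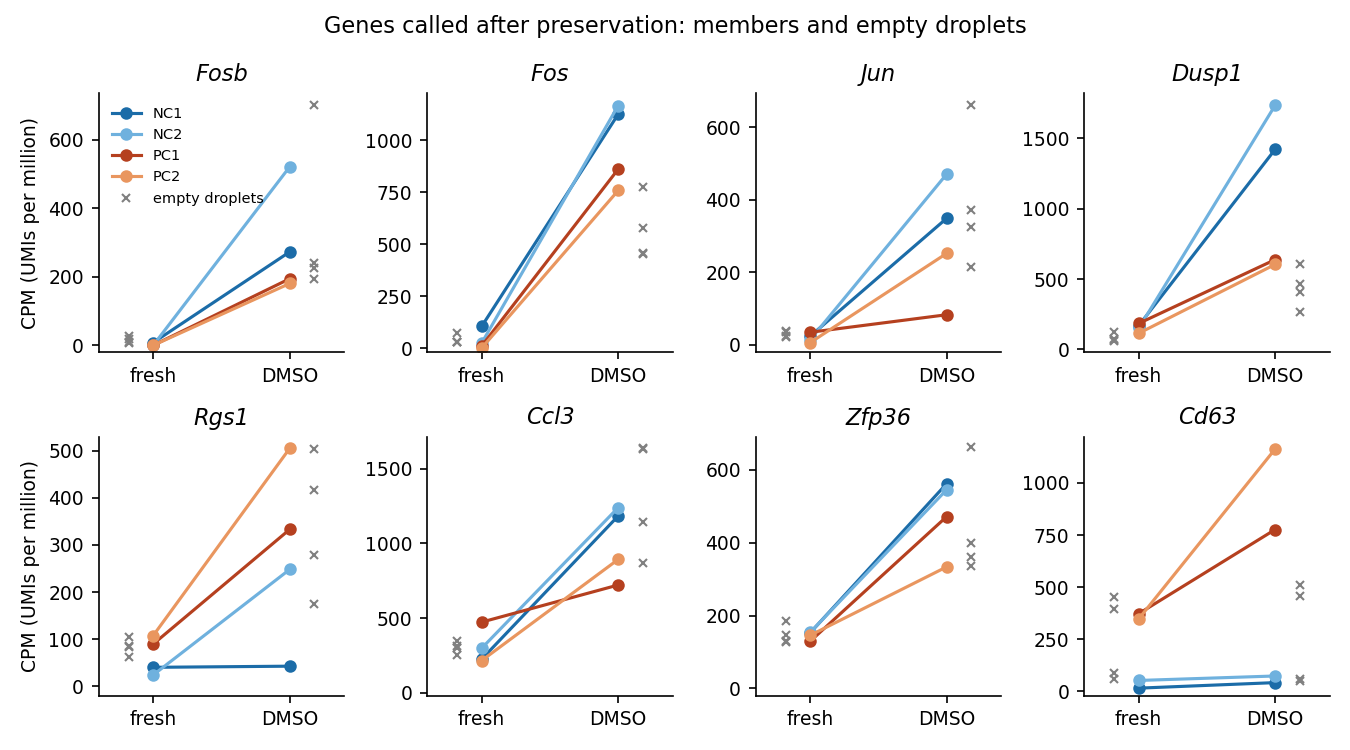
Level (y axis, CPM) of the 8 genes called after preservation in fresh and DMSO libraries (x axis), with lines joining the members of 1 animal and grey crosses for the empty droplets of the same libraries. Fos rises from at most 104 CPM to at least 757 CPM in all 4 animals, and crosses rise as well.

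Of the 28 AP-1 and early response genes present in the files, 12 were tested and 5 were called higher, with a median log2 fold change of 0.91 against 0.00 over all tested genes, of which 0.511% were called higher. The filter on low counts admits a gene that is high in the DMSO libraries alone, as Fosb with 1 UMI in all fresh members. It leaves out genes low in both groups, so this count and median are a description only. The members not called were mixed: Btg2 had 0.92 and Klf6 0.78, while Nr4a1 had -0.27, Klf4 0.07 and Btg1 -0.55. Of 8 chemokines and cytokines tested 1 was called (Ccl3), with a median log2 fold change of 0.18, and of 4 NF-kB feedback genes, 6 heat shock genes and 7 interferon-stimulated genes none was called, with medians of -0.11, 0.03 and -0.24. At that share over all genes, 0 calls in lists of this size are near the background. Only 3 of the 15 non-classical monocyte genes were tested, and Spn, Nr4a1 and Pou2f2 had log2 fold changes of -0.62, -0.27 and -0.58 with adjusted p of at least 0.414. Among 8 tested Fc receptor and partner genes other than Fcgr3a the median was -0.08 and none was called.

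Whether members responded to preservation otherwise than other cells was tested as the difference of log2 fold changes. Against all other cells, 10 of 10218 genes had an adjusted p under 0.05 with a larger rise in members (0.0979%) and 0 with a smaller one. They were Apoe, C1qa, C1qb, C1qc, Gpnmb, Trem2, Folr2, Fcna, Igf1 and Cd63, which are genes of macrophages. Without the 8 complement-rich members, 0 genes passed in edgeR's test (321, or 3.15%, had an unadjusted p under 0.05). For the early genes the difference between members and other cells was 0.58 ± 0.36 (SE) for Fos, -0.15 ± 0.46 for Jun, 0.02 ± 0.24 for Dusp1 and -0.22 ± 0.21 for Ccl3 on the log2 scale, and none passed (adjusted p = 1 in edgeR).

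Against cells with at least 3 UMIs of Vcan and Fcnb and none of Clec4f or Siglech, 12 of 4965 genes rose more in members (0.242%) and 1 less (0.0201%). Of the early genes, Fos was 1 of the 12: its log2 fold change was larger in members by 1.60 ± 0.34 (SE; edgeR adjusted p = 0.00139), and by 1.58 without the complement-rich members (adjusted p = 0.00307), when 1 gene rose more (0.0201%) and 3 less (0.0602%). Fos levels are given here for a stricter group of Vcan Fcnb cells than the group tested. In cells with at least 8 UMIs of Vcan and Fcnb, a stricter limit set after seeing the data, Fos had 377, 120, 29.0 and 61.0 CPM in fresh NC1, NC2, PC1 and PC2, above the members in each animal, and 899, 1049, 798 and 987 CPM after DMSO. The Fos difference missed the threshold without NC1, without PC2 and with no filter on low counts (adjusted p = 0.204, 0.0613 and 0.0551). Between the diets, the effect of preservation in members differed for 1 of 1567 genes (0.0638%), C1qc, with an interaction of 3.60 on the log2 scale (edgeR adjusted p = 0.0464). That gene is 1 of the complement genes, and without the 8 members the interaction was 0.56 and 0 genes passed in edgeR (75, or 4.74%, with an unadjusted p under 0.05), as in DESeq2 with all members (13, or 0.83%, with an unadjusted p under 0.05).

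The diets were compared with the UMIs of members summed per animal, 2 animals against 2. Of 2846 genes tested, 24 were called higher in CDAA (0.843%) and 3 lower (0.105%). The higher genes included the complement genes C1qa, C1qb and C1qc, the lipoprotein gene Apoe, the lipase Lpl, the fatty acid binding proteins Fabp4 and Fabp5, the lysosomal genes Gpnmb, Cd63 and Ctsd, and also Folr2, Cd5l, Tmem176b, Lgals3, Capg, Cst7, Rhoc, Ifi30, Slc25a4, Chi3l1, Retn, Ccl9, RGD1561778 and RGD1562667. The lower genes were Cd3g, a T cell receptor subunit, Ing2 and Ypel3. For the T cell gene Cd3g, members had 31.7 and 39.8 CPM in fresh CDAA and 149 and 161 CPM in fresh CSAA libraries, and empty droplets had 119 to 148 CPM and 292 to 304 CPM. None of the 3 lower genes was called without the 8 complement-rich members (adjusted p = 0.0668 for Cd3g, 0.0787 for Ing2 and 0.065 for Ypel3), in DESeq2 (0.20, 0.492 and 0.282), with no filter on low counts or without the DMSO libraries of PC1 and NC2.

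The complement signal sat in few cells. C1qa, C1qb and C1qc encode the chains of C1q and are abundant in tissue macrophages. Together they had at most 9 UMIs in 222 members, and 21, 109, 131, 154, 156, 199, 231 and 239 UMIs in the other 8 members. Of the 8, 1 came from NC2 fresh with 21 UMIs, 1 from PC1 fresh, 1 from PC1 DMSO, 1 from PC2 fresh and 4 from PC2 DMSO. None of the 8 was among the 1043 of 32170 cells with the highest doublet scores. So small a set would hold few of any 8 cells, so this does not show whether they are doublets. These 8 members had a median of 11132 UMIs per cell against 3874 in the rest, and a median of 1 UMI of Eno3, Ccl9 and Spn together against 5. Their median over Apoe, Gpnmb, Trem2, Lpl, Fabp4 and Spp1 was 82.5 UMIs.

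**Figure D4:**
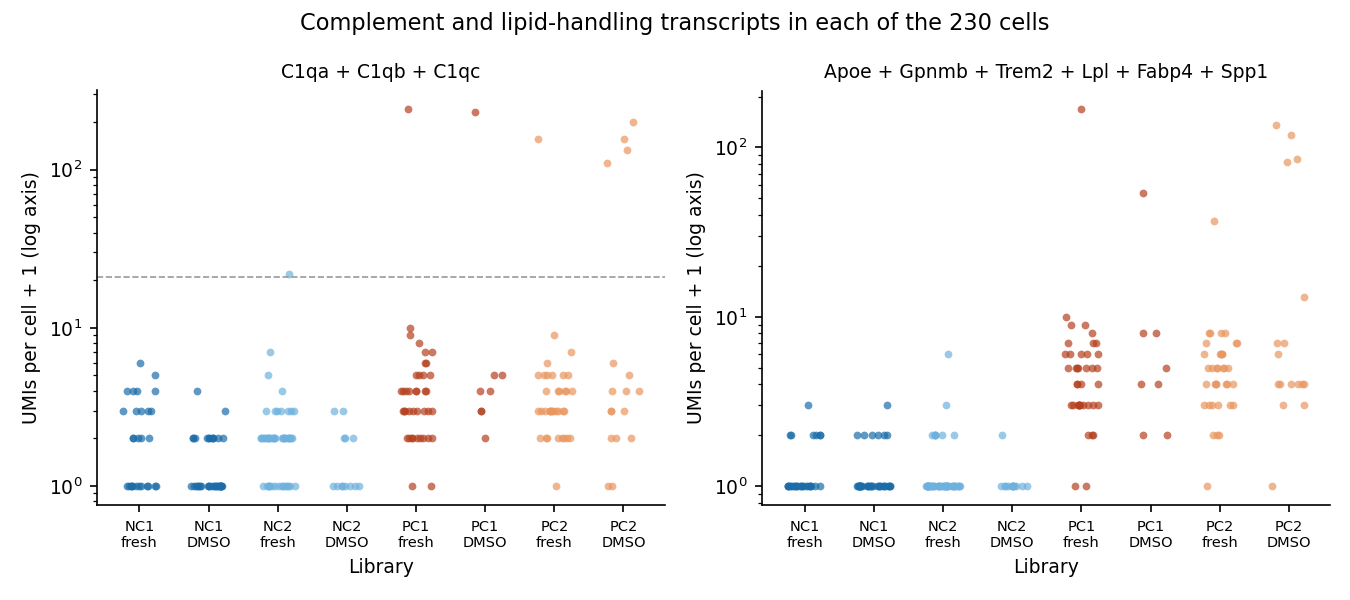
UMIs per cell plus 1 (y axis, log scale) of the 3 C1q genes (left) and of 6 lipid-handling genes (right) in each of the 230 members, by library (x axis). The dashed line on the left marks 20 UMIs, and 8 cells lie above it, while on the right the CDAA cells other than these have a median of 3 UMIs and the CSAA cells of 0.

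In summed counts, C1qb was measured at 128, 42.6, 91.3 and 74.4 CPM in NC1 fresh, NC1 DMSO, NC2 fresh and NC2 DMSO, and at 672, 2386, 697 and 2200 CPM in PC1 fresh, PC1 DMSO, PC2 fresh and PC2 DMSO. The diets did not overlap, and the DMSO libraries of CDAA stood highest. The log2 fold change was 3.63 ± 0.24 (SE; edgeR adjusted p = 0.000115). Without the 8 members the CDAA libraries had 200 to 270 CPM of C1qb, the B cells of the same libraries 184 to 278 CPM, and the log2 fold change was 1.40 (adjusted p = 0.038). C1qa and C1qc were then no longer called, with log2 fold changes of 1.23 each and adjusted p of 0.0925 and 0.111. These 8 cells were singled out after their values were seen, and what they are was not tested.

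Without the 8 members, 16 of 2658 genes were called higher in CDAA (0.602%) and 1 lower (0.0376%), and 14 genes were shared with the calls on all members. In members with no UMI of the lymphoid and basophil markers named above, 0 of 614 tested genes were called. Apoe, Fabp4, Lpl, Gpnmb, Cd63, C1qb, Retn, RGD1561778 and RGD1562667 had no value in that test, so it does not show if their changes were lost. Of the 16 higher genes, 9 were at least 2-fold above the B cells of the same library in all 4 CDAA libraries: Lpl, RGD1561778, RGD1562667, Chi3l1, Ccl9, Retn, Rhoc, Hsd11b1 and Nrp1. The same 9 were above the empty droplets in all 4. B cells are a different cell type, and the share of all genes above them in this way was not computed. In contrast Apoe, Fabp4, Gpnmb, Cd63, Capg and C1qb were not above the B cells in all 4, and exceeded them in 3, 2, 1, 3, 2 and 2 of the 4 libraries, respectively. Cst7 was above the B cells in 4 of 4 libraries, by at least 1.29-fold, and above the empty droplets in 2.

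Lpl, lipoprotein lipase, had 8.0, 34.1, 14.4 and 0 CPM in NC1 fresh, NC1 DMSO, NC2 fresh and NC2 DMSO and 269, 305, 253 and 135 CPM in PC1 fresh, PC1 DMSO, PC2 fresh and PC2 DMSO. The values of the diets did not overlap, as for 3.94% of all tested genes with CDAA higher and 2.39% with CDAA lower. Its log2 fold change was 3.79 ± 0.36 (SE; edgeR adjusted p = 0.000751) and 3.63 without the 8 members (adjusted p = 0.000836). B cells had 27.8 to 54.4 CPM of Lpl in CDAA libraries. Other cells had 95.4 to 127 CPM of Lpl in CDAA and at most 5.5 CPM in CSAA, so the gene was higher there too.

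The part of free RNA in the diet calls was not tested. Fabp4, unlike Lpl, was not at least 2-fold above the B cells in all 4 CDAA libraries. It had 2 UMIs in all CSAA members and 167 in CDAA members, a pooled ratio of 80.9 with a 95% counting interval of 22.1 to 674 (edgeR adjusted p = 0.000235). Members of the CDAA libraries had 333, 250, 336 and 343 CPM of Fabp4 in PC1 fresh, PC1 DMSO, PC2 fresh and PC2 DMSO. Empty droplets of these libraries had 705 to 778 CPM and B cells 199 to 297 CPM, so the members were below the empty droplets in 4 of 4 libraries and above the B cells in 3, by at most 1.67-fold. Folr2, a folate receptor of macrophages, had no UMI in CSAA members and 41 in CDAA members, which is at least 13.2-fold higher when 3 counts over the group are taken as the floor. It was too low to be tested once the 8 members were left out.

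The label gene Ccl9 was higher in CDAA. It was measured at 40.2, 76.7, 62.5 and 49.6 CPM in NC1 fresh, NC1 DMSO, NC2 fresh and NC2 DMSO and at 174, 111, 285 and 108 CPM in PC1 fresh, PC1 DMSO, PC2 fresh and PC2 DMSO. The lowest CDAA library lay above the highest CSAA library. The log2 fold change was 1.63 ± 0.28 (SE; edgeR adjusted p = 0.0291), and 1.82 without the 8 members (adjusted p = 0.0233). Other cells also had more Ccl9 in CDAA, at 56.7 to 76.4 CPM against 8.6 to 19.1 CPM, and the diet effect differed between members and other cells by -0.56 ± 0.35 (SE; adjusted p = 1). Eno3 had a log2 fold change of 0.48 without the 8 members (adjusted p = 0.334).

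RGD1562667 was measured at 0 to 24.8 CPM in the 4 CSAA libraries and 358, 333, 855 and 388 CPM in PC1 fresh, PC1 DMSO, PC2 fresh and PC2 DMSO. Its log2 fold change was 5.84 ± 0.61 (SE; edgeR adjusted p = 0.00107). The size of this fold rests on few CSAA transcripts, with 1 UMI in NC2 DMSO, 3 in NC2 fresh and none in NC1, and it was 4.88 without NC1, while without NC2 no CSAA transcript remained. RGD1561778 had 3 UMIs in CSAA members and 134 in CDAA members, a ratio of 43.3 with a 95% counting interval of 14.5 to 213 (edgeR adjusted p = 0.00107). Chi3l1, a chitinase-like protein of activated macrophages, rose by 1.55 ± 0.23 on the log2 scale (SE; adjusted p = 0.012), from 49.6 to 169 CPM in CSAA to 180 to 418 CPM in CDAA. Retn, the resistin gene, had at most 9.6 CPM in CSAA and 55.5 to 190 CPM in CDAA, with PC2 fresh the highest (log2 fold change 3.55 ± 0.64 SE, adjusted p = 0.0339), and it missed the threshold without PC2, in the fresh libraries alone, with no filter (adjusted p = 0.564), without the DMSO libraries of PC1 and NC2, and without the limits on Vcan, Fcnb, Clec4f and Siglech (log2 fold change 1.03, adjusted p = 0.339). With no filter on low counts, which raised the number of genes tested to 10797, Lpl, RGD1562667 and RGD1561778 were not called either (adjusted p = 0.0644, 0.134 and 0.129), nor were Folr2, Gpnmb and Cd63 (0.563, 0.289 and 0.0838), and 5 genes were called in all, Fabp4, Apoe and C1qb among them.

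**Figure D5:**
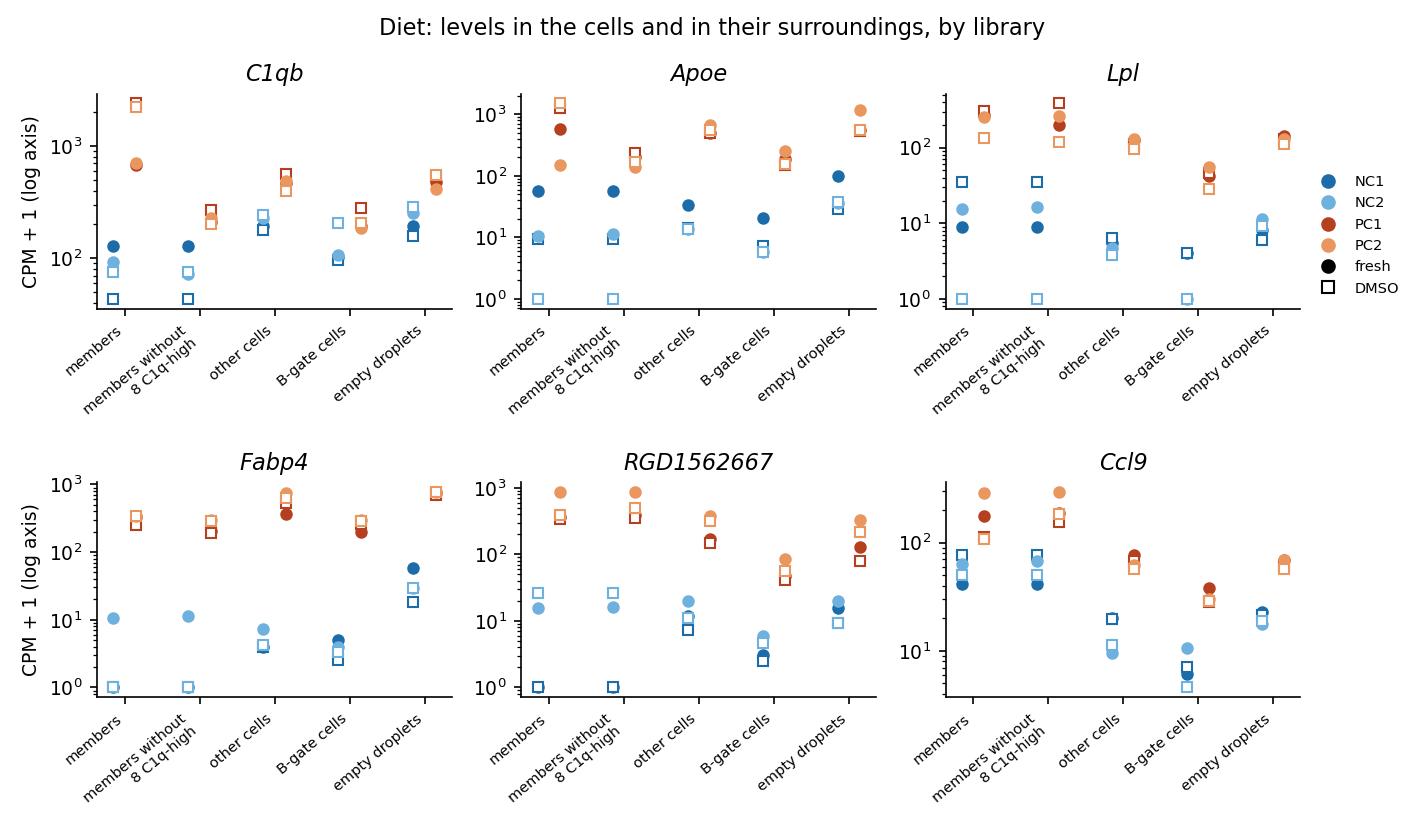
Level (y axis, CPM plus 1, log scale) of 6 genes in members, in members without the 8 C1q-rich cells, in the other cells, in B cells and in empty droplets (x axis), with 1 point per library, blue tones for CSAA and orange and red tones for CDAA animals, filled circles for fresh and open squares for DMSO. The CDAA values of C1qb fall from at least 672 CPM to at most 270 CPM once the 8 cells are left out, whereas those of Lpl, RGD1562667 and Ccl9 stay above the B cells.

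By list, 7 of 10 tested lipid-associated macrophage genes were called higher in CDAA with all members, with a median log2 fold change of 3.40 against -0.02 over all genes, and 5 of 10 without the 8 members, with a median of 2.27, where 0.843% and 0.602% of all tested genes were called higher. Among these, Apoe, Fabp4, Gpnmb and Cd63 were not above the B cells in all 4 CDAA libraries without the 8 members. Plin2, which coats lipid droplets, had -0.56 (adjusted p = 0.348) and Lipa, the lysosomal acid lipase, 0.38 (adjusted p = 0.517). Of the 12 Kupffer cell genes 5 were tested and 5 called with all members, and 3 tested and 1 called without the 8. The filter on low counts admits a gene that is high under 1 diet alone, as Folr2 with no UMI in CSAA members. It leaves out genes that are low under both diets. The counts and medians of the lipid-associated and Kupffer lists are therefore a description only. Lysosomal genes had a median of 0.61 with 1 of 18 called (Ctsd), which moved to 0.10 with 0 of 17 called. None of the 5 non-classical monocyte genes (Cebpb, Cx3cr1, Nr4a1, Pou2f2 and Spn; median -0.11), none of 16 interferon-stimulated genes (median -0.28) and none of 13 myeloid transcription factors (median -0.11) was called, and the factor gene Spi1 had -0.83 (adjusted p = 0.0545). With 0.843% of all tested genes called higher and 0.105% lower, 0 calls in lists of this size are near the background.

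The diet effect in members was also compared with that in other cells. With all members, 12 of 11541 genes had a larger CDAA effect in members (0.104%) and 20 a smaller one (0.173%, the rule gene Clec4a3 among them), and the larger ones were led by Pf4, Axl, Atp1b1, C1qb and C1qa. Without the 8 members 1 gene was larger (0.00868%) and 18 were smaller (0.156%), and 6 genes other than those of the rule were shared between these lists: Fcgr2a, G0s2, LOC103690111, Plin2, S100a4 and S100a6. S100a6, a calcium-binding protein, had 1004 to 2157 CPM in CSAA members and 631 to 1054 CPM in CDAA members, and 810 to 985 CPM and 1064 to 1295 CPM in other cells. The difference of the log2 effects was -0.998 ± 0.14 (edgeR adjusted p = 7.45e-09), and -0.87 without the 8 members, but it missed the threshold without PC2 (-0.87, adjusted p = 0.286). In other cells every CDAA library lay above every CSAA library, whereas the members of the diets overlapped. The share of all genes that separate in this way in other cells was not computed. G0s2, an inhibitor of lipolysis, differed by -0.87 (adjusted p = 4.76e-05), with 471 to 1695 CPM in CSAA and 280 to 823 CPM in CDAA members, and missed the threshold without NC2 (-0.56, adjusted p = 0.339), without PC1 (0.142) and without PC2 (1).

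Against cells with at least 3 UMIs of Vcan and Fcnb, 9 of 7483 genes had a larger CDAA effect in members (0.12%) and 1 a smaller one (0.0134%). Chi3l1 had a larger effect by 1.40 ± 0.22 (SE; edgeR adjusted p = 0.0172), and by 1.51 without the 8 members (adjusted p = 0.000615), when 6 genes had a larger effect (0.0804%) and 1 a smaller one. The cells with at least 8 UMIs of Vcan and Fcnb had 237 to 397 CPM of Chi3l1 in CSAA and 281 to 383 CPM in CDAA, so their levels were near those of CDAA members under both diets. G0s2 had a smaller effect in members, by -1.04 (adjusted p = 0.0206), which missed the threshold without NC2 (-0.81, adjusted p = 0.164) and at the limit of 8 UMIs (0.0587). Lpl, RGD1562667 and Ccl9 did not differ at this threshold between members and Vcan Fcnb cells, with differences of -0.92 ± 0.60, 0.70 ± 0.74 and -0.55 ± 0.54 (SE) on the log2 scale.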

How the data were processed

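Immune cells of rat liver were profiled with the Chromium 3' chemistry (version 2), and the authors made the deposited files with Cell Ranger 2.1.1 against Rnor6.0 with Ensembl release 86. Per the labels and file headers, the deposited values are raw UMI counts for all barcodes, neither filtered nor normalized. Barcodes under 500 UMIs or with at least 20% mitochondrial UMIs were left out here. Members and gene lists were chosen with earlier results of these data known. Of 445 listed symbols, 424 were in the files, and 274 symbols with several gene identifiers were kept apart.

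UMI counts of members were summed per library. Preservation was tested with edgeR 4.0.16 (R 4.3.3; quasi-likelihood test, filterByExpr, TMM factors) with the animal as a block, since both libraries of an animal come from the same liver. Residuals of the 2 libraries of an animal correlated at 0.350, 0.272, 0.237 and 0.316, although fresh PC1 correlated more with PC2 DMSO (0.294) than with its own DMSO library. Diet was tested on counts summed per animal. Differences between members and other cells were tested as interactions in the same model, where cell groups of 1 library share their source. P-values were adjusted by Benjamini-Hochberg over all genes tested, and a called gene of members changed at least 2-fold. Shares and genes per cell were tested by exact permutation over animals (scipy 1.17.1). DESeq2 1.42.0 was an alternative, and the scripts were tested on simulated data. Doublet scores came from Scrublet in scanpy 1.11.5, with the highest 0.8% per 1000 cells taken as high. The genes named were the 10 called genes with the largest change in each direction that moved the same way in all animals (preservation) or did not overlap between diets, and 5 per direction for differences, and genes of the rule were not named as results. A result that is withheld is not reported here. Other genes named in the text come from the lists or were chosen after their values were seen. Each SE of an edgeR log2 fold change was derived from the test, as the absolute log2 fold change divided by the square root of F. It was not estimated separately over animals. Intervals cover counting error only.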

Additional observations from a re-analysis of the deposited data

Results flagged for a closer look

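The results here are those where a test of the difference between groups passed the adjusted threshold in edgeR, given as differences of log2 fold changes. The effect of preservation on members differed between the diets for C1qc (3.60), which had 0.56 without the 8 members rich in C1q. The C1qc difference was 4.34 without NC1 and 3.24 without NC2, in fits that leave 1 CSAA animal. Against other cells, preservation raised Igf1 (3.04), Trem2 (2.85), Folr2 (2.62), Apoe (1.79) and Gpnmb (1.58) more in members, and against the Vcan Fcnb cells Trem2 (2.66), Folr2 (2.44), Apoe (1.76), Fcna (1.72) and Fos (1.60), while AABR07060872.1 had -0.74. Of these, Fos and AABR07060872.1 passed also without the 8 members. Without PC2, none of the genes named against other cells passed, with 0.47 for Igf1, 0.97 for Trem2, 2.48 for Folr2, 0.50 for Apoe and -0.42 for Gpnmb. Against the Vcan Fcnb cells, Trem2 (1.06), Folr2 (2.39) and Apoe (0.94) missed the threshold without PC2, and Fcna (0.57) without PC1. Fos missed the threshold without NC1, without PC2 and with no filter, and AABR07060872.1 had -0.21 (adjusted p = 0.999) without NC2 and -0.22 (adjusted p = 0.998) at the limit of 8 UMIs.

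The diet effect was larger in members than in other cells for Pf4 (4.31), Axl (3.70), Atp1b1 (2.59), C1qb (2.47) and C1qa (2.42), and smaller for Fpr3 (-1.18), Plin2 (-1.12), S100a6 (-0.998), G0s2 (-0.87) and LOC497796 (-0.86). Plin2, S100a6 and G0s2 passed without the 8 members too. Pf4 and Atp1b1 missed the threshold without any 1 animal, at 3.51 to 12.48 and 1.84 to 3.05, and Axl without NC1 (2.62) and without PC2 (2.23), so the sizes of these differences are uncertain. Fpr3, Plin2, G0s2 and LOC497796 missed it without NC2, PC1 or PC2, and S100a6 without PC2. Against the Vcan Fcnb cells it was larger for Pf4 (5.07), C1qa (2.13), C1qb (2.13), C1qc (1.66) and Chi3l1 (1.40) and smaller for G0s2 (-1.04), of which Chi3l1 and G0s2 passed without the 8 members. Pf4 missed the threshold without NC2 (9.17) and without PC2 (4.81), whereas Chi3l1 passed without each animal (1.29 to 1.48).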

How the results depend on the processing

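Without the replicate block, 6 genes were called for preservation in place of 8, as Rgs1 and Cd63 were not called. For members against other cells the count was 11 in place of 10, which does not show if the same genes were called. Fos, Fosb, Jun, Dusp1 and Zfp36 were called under every alternative that gave a value for them. Preservation gave 13 calls with no filter, 3 with at least 10 UMIs in every library, 24 with at least 1 UMI of both rule genes, 5 with at least 3 UMIs, 5 in members without lineage markers, 15 without the limits on Vcan, Fcnb, Clec4f and Siglech, and 7 to 15 without 1 animal, the highest without NC1. Diet gave 27 calls with all members, 5 with no filter, 54 in the DMSO libraries alone, 0 in members without lineage markers, 88 with at least 1 UMI, 263 without the limits, 15 without the DMSO libraries of PC1 and NC2, 17 without the C1q-rich members, and 51 to 99 without 1 animal, where the lone animal of a diet is assumed to vary like the others. Their interaction gave 5 calls with no filter, 0 in DESeq2, 0 without the C1q-rich members and 0 to 35 without 1 animal.

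For members against other cells, preservation gave 6 genes with no filter, 5 against cells lacking a rule gene, 0 without the C1q-rich members and 0 to 11 without 1 animal, and diet gave 61 against cells lacking a rule gene, 19 without the C1q-rich members and 4 to 35 without 1 animal. Against the Vcan Fcnb cells, preservation gave 4 with no filter, 4 without the C1q-rich members and 2 to 15 without 1 animal, and diet gave 48 with no filter, 3 at the stricter limit of 8 UMIs and 6 to 55 without 1 animal. Without the C1q-rich members the sign turned for Trem2 (-1.47), Folr2 (-0.0468) and Apoe (-0.15) against other cells, for Trem2 (-1.51), Folr2 (-0.19) and Apoe (-0.30) against the Vcan Fcnb cells, and for C1qb (-0.0876) and C1qc (-0.40) in the difference of the diet effect from the Vcan Fcnb cells. Gpnmb ran from -0.42 to 2.85 without 1 animal. The diet difference in share turned to 0.0157 points with at least 1 UMI, 0.0276 with at least 3 UMIs and 1.20 without the limits. Beyond the leaving out of cells or libraries itself, the cause was not tested. The 8 and 13 members of the smallest libraries limit all values for DMSO, and alternatives that name the C1q-rich members, the stricter limit of 8 UMIs, the smallest libraries, at least 1 UMI in the diet test of genes, or no limits were chosen after seeing the data.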
